A study of Mus musculus with 12 samples.

Results

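*Gpr65* (NCBI Gene 14744) and *Galc* (14420) are 2 of the 16234 genes in the count table of bone marrow-derived mast cells (BMMCs), and they lie next to each other on mouse chromosome 12. The pair was chosen by its measured counts: both genes had far more reads in stimulated BMMCs labelled *Elk4* knockout (KO) than in those labelled wild type (WT), so their differences between genotype labels are given as a description without a test. RNA was sequenced in 12 libraries, with 2 libraries in each of 6 groups. BMMCs were grown for 4 to 8 weeks in IL-3 and SCF (10 ng/ml of each) from bone marrow of C57BL/6N mice of 6 to 12 weeks and of both sexes, and came from littermate WT mice, mice heterozygous (HZ) for a conventional *Elk4* knockout, or KO mice. Each genotype was left unstimulated, or was stimulated through the IgE receptor FcϵRI with 0.5 µg/ml anti-DNP IgE overnight and 100 ng/ml of the antigen DNP-HSA for 1 h. The labels do not say whether unstimulated cells received IgE, nor whether the 2 libraries of a group came from separate mice, so p-values measure only the spread between these libraries.

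GPR65 is a G protein-coupled receptor that senses extracellular acidity. Protons activate it, it couples through Gs to adenylyl cyclase, and the rise in cyclic AMP activates protein kinase A; it is known mainly from lymphocytes and myeloid cells, and acidic surroundings are common in inflamed tissue. GALC, galactosylceramidase, is a lysosomal enzyme that removes galactose from galactosylceramide and from the lysolipid psychosine. Its loss causes globoid cell leukodystrophy (Krabbe disease), in which psychosine accumulates, and psychosine has also been described as a ligand of GPR65.

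The 2 genes are transcribed away from each other. In RefSeq models on GRCm38.p6, an older build than the GRCm39 named in the submitters' processing notes, their start sites were 9176 bases apart. The 250 bases upstream of each start are shown because the genes were high in the same libraries. Capitals mark GGAA, the core bound by ETS factors such as ELK4, in either direction, and TCATGTGA in either direction. The *Gpr65* window was chr12:98268385-98268634 on the + strand and the *Galc* window chr12:98259460-98259709 on the - strand, each written 5′ to 3′ in the direction of its gene.
Gpr65: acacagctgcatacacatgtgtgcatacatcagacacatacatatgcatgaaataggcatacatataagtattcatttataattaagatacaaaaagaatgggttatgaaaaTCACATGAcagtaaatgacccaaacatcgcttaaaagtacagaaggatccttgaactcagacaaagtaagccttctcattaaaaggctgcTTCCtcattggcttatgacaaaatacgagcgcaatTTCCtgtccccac
Galc: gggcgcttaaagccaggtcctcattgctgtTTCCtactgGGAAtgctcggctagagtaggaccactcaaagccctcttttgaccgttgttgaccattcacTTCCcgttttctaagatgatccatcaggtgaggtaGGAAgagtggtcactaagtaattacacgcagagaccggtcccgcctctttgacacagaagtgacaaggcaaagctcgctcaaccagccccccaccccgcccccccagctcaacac
GGAA occurred 2 times in the *Gpr65* window and 4 times in the *Galc* window, and 93.4% of the 32851 RefSeq windows of this length held it, so its presence does not set the pair apart. TCATGTGA, read as TCACATGA, stood 138 to 131 bases upstream of the *Gpr65* start, was not found in the *Galc* window, and was present in 0.8% of all windows. GGAA and TCATGTGA were added to the search after the windows had been read. Neither window held the longer ETS letters CCGGAA (12% of all windows), the E-box CACGTG (6.0%), GATAAG (6.5%), the cyclic AMP response element TGACGTCA (1.5%) or the CArG box (1.5%), searched on both strands. GC content was 36.8% in the *Gpr65* window and 54.0% in the *Galc* window, against a median of 52.4% over all windows. These matches describe letters in a window and are not binding sites.

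Library totals lay between 29697958 and 35531667 counts, and replicate libraries differed by more than sampling noise in every group. Reads of *Elk4* did not mark the genotype labels: unstimulated libraries held 2426 and 2740 of them for WT, 3238 and 2837 for HZ, and 2613 and 2253 for KO. The log2 difference of *Elk4* in unstimulated libraries labelled KO against WT was -0.19 (standard error (SE) 0.06, adjusted p = 0.00872 in the quasi-likelihood test of edgeR, adjusted after Benjamini and Hochberg). Counts summed over a whole gene do not reveal a deleted stretch inside it, and "KO", "HZ" and "WT" below are the labels of the libraries. The 9 mast cell marker genes together held 46563 to 57198 CPM, that is, counts scaled to one common library total, in each library. Summed counts were at most 8 for the neutrophil markers, 12 for the B cell markers, 19 for the T and NK cell markers and 6 for the dendritic cell markers. These sums cover only the markers present in the count table. They were 6 of 8 for neutrophils, 4 of 5 for B cells, 3 of 8 for T and NK cells and 3 of 5 for dendritic cells.

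*Gpr65* was at or near 0 in WT, at low to intermediate levels in HZ and highest in KO BMMCs. Without stimulation, the libraries held 0 and 0 counts for WT, 5 and 16 for HZ, and 181 and 162 for KO. After stimulation, they held 3 and 6 counts for WT, 115 and 76 for HZ, and 305 and 321 for KO. Within either state the 3 genotypes did not overlap, and both KO libraries lay above both HZ libraries, which lay above both WT libraries. The share of all genes whose genotypes separate in this way was not counted, for this gene or those below. The gap of stimulated KO over WT was also what chose the pair. Scaled for library size by the trimmed mean of M-values (TMM), the level of *Gpr65* was 0 CPM in unstimulated WT, 0.315 ± 0.241 CPM (SD, n = 2) in unstimulated HZ and 4.70 ± 0.185 CPM in unstimulated KO. It was 0.151 ± 0.0710 CPM in stimulated WT, 3.04 ± 0.660 CPM in stimulated HZ and 11.1 ± 0.135 CPM in stimulated KO. In the order of the 6 groups, from unstimulated WT through stimulated WT to stimulated KO, only stimulated WT and unstimulated HZ overlapped as neighbours.

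*Galc* showed the same order of genotypes with more reads. Without stimulation, 5 and 28 counts were found for WT, 73 and 64 for HZ, and 558 and 538 for KO. After stimulation, 7 and 10 counts were found for WT, 179 and 152 for HZ, and 521 and 481 for KO. Here too every KO library was above every HZ library and every HZ library above every WT library, and the 2 unstimulated WT libraries differed more from each other, in proportion, than those of any other group for this gene. The level of *Galc* was 0.476 ± 0.459 CPM (SD, n = 2) in unstimulated WT, 2.02 ± 0.114 CPM in unstimulated HZ and 15.02 ± 0.199 CPM in unstimulated KO. It was 0.286 ± 0.0708 CPM in stimulated WT, 5.30 ± 0.221 CPM in stimulated HZ and 17.7 ± 1.42 CPM in stimulated KO. Only the 2 WT groups overlapped as neighbours in this order. In bulk RNA, fewer cells that express a gene and less of its RNA per cell cannot be told apart.

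**Figure D1:**
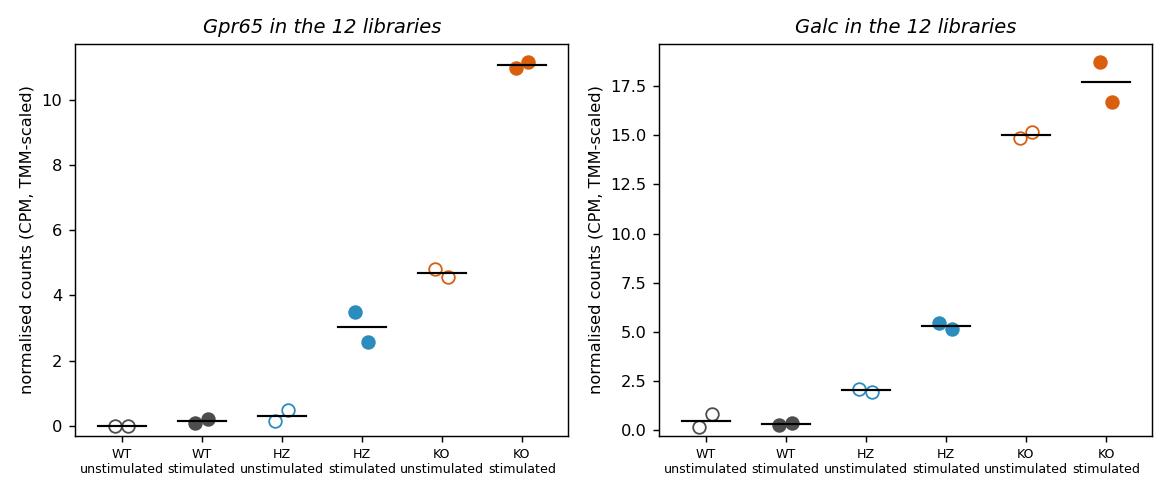
TMM-scaled counts (CPM, vertical axis, linear) of *Gpr65* (left) and *Galc* (right) in the 12 libraries by genotype label and stimulation. Open points are unstimulated and filled points stimulated libraries, and the bar is the mean of 2 libraries. *Gpr65* goes from 0 in unstimulated WT to a mean of 11.1 CPM in stimulated KO, and *Galc* from 0.286 CPM in stimulated WT to 17.7 CPM in stimulated KO.

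Between KO and WT the folds were large in both genes. In the contrast used for the choice, stimulated KO against WT, the level of *Gpr65* was 73.1-fold higher (95% exact conditional interval 38.3 to 161, counting error only). In the same contrast *Galc* was 61.9-fold higher (38.5 to 107). Of all genes tested, 3.05% were called higher there, that is, passed an adjusted p of 0.05 and a 2-fold change. In unstimulated libraries, *Gpr65* in KO was 53.3-fold above a floor of 3 counts in each WT library, the limit taken for a count of 0. Counting error in KO is left out of that value. *Galc* was 31.0-fold higher in unstimulated KO (21.9 to 45.3), and its fitted log2 difference went from 4.95 to 6.60 without replicate 2 of unstimulated WT, the library with 28 counts. In unstimulated KO against WT, 2.64% of all genes were called higher.

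HZ BMMCs lay between the other genotypes. In stimulated HZ against WT, *Gpr65* was 20.2-fold higher (95% exact conditional interval 10.4 to 44.9) and *Galc* 18.6-fold higher (11.4 to 32.3), and 1.96% of all genes were called higher. In unstimulated HZ, *Gpr65* was 3.57-fold above the floor of 3 counts per WT library, with counting error in HZ left out. *Galc* was 4.18-fold higher there than in WT (2.84 to 6.31), and 3.83% of all genes were called higher. The fold of KO over HZ was larger without stimulation: for *Gpr65* it was 15.2 (9.76 to 24.8), and 3.61 (3.07 to 4.27) after stimulation. For *Galc* it was 7.42 (6.21 to 8.93), and 3.34 (2.94 to 3.79) after stimulation. The KO and HZ differences share the same WT libraries.

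Stimulation, which was not the contrast of the choice, changed the 2 genes unequally. *Gpr65* rose in KO and HZ and *Galc* in HZ, and WT had too few reads of either for a firm test. The HZ response compares no library of the contrast that chose the pair. Stimulated KO and WT libraries entered both the choice and their responses. The pair was chosen with earlier results of these data known, and the filter on low counts and the fit used the libraries of all groups. The p-values of the HZ responses are therefore not shown to be independent of the choice either.

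In HZ, *Gpr65* went from 5 and 16 to 115 and 76 counts, with no overlap between the groups. The share of all genes, or of ratios between genes, that separate by stimulation in this way was not counted, here or below. Its log2 response was 3.28 (SE 0.37, adjusted p = 1.17e-10 in edgeR). *Galc* went in HZ from 73 and 64 to 179 and 152 counts, also with no overlap, and its log2 response was 1.39 (SE 0.22, adjusted p = 2.91e-07 in edgeR). Both genes were called higher, as were 7.02% of all genes. Without replicate 2 of unstimulated HZ (16 counts) the log2 response of *Gpr65* was 4.37, and without replicate 1 it was 2.64, with the call kept in each case.

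In KO, *Gpr65* went from 181 and 162 to 305 and 321 counts, so that both stimulated libraries were above both unstimulated ones. Its log2 response was 1.23 (SE 0.24, adjusted p = 3.15e-05 in edgeR), and it was called higher with 3.73% of all genes. High counts in the stimulated KO libraries helped choose the pair, so p-values of the KO responses are not independent of the choice. With library totals in place of TMM the response was 0.95 (adjusted p = 0.000581 in edgeR), just under the 2-fold threshold; that scaling moved the median response of all genes in KO from -0.01 to -0.30. *Galc* in KO had 558 and 538 counts without and 521 and 481 with stimulation, and a log2 response of 0.24 (SE 0.16, adjusted p = 0.259 in edgeR), which was not called. The fold of *Galc* was 1.18 (95% exact conditional interval 1.08 to 1.29, counting error only), and with library totals the sign of its log2 response turned, to -0.05.

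In WT the counts were too low for a firm test. Both genes passed the filter on low counts only through the KO and HZ libraries: the filter dropped both from a fit of the WT groups alone. *Gpr65* had 0 and 0 counts without and 3 and 6 with stimulation, 1.72-fold above a floor of 3 counts per unstimulated library. It passed the thresholds in edgeR (adjusted p = 0.00543), as did 3.71% of all genes, but not without replicate 2 of stimulated WT (adjusted p = 0.0509 in edgeR) nor on log2(FPKM + 1) (adjusted p = 0.428 in limma), so no change in WT is read from it. *Galc* in WT had 5 and 28 counts without and 7 and 10 with stimulation, which overlap, and its log2 response of -0.75 (SE 0.49, adjusted p = 0.222 in edgeR) was not called. Without replicate 2 of unstimulated WT the sign of that response turned (0.92), and without replicate 1 it was -1.47 and passed.

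The response in KO was smaller than that in HZ for both genes. The log2 response of *Gpr65* in KO minus that in HZ was -2.04 (SE 0.46, adjusted p = 0.000252 for the interaction in edgeR). For *Galc* the same difference was -1.15 (SE 0.27, adjusted p = 0.000529 for the interaction in edgeR). Such interactions passed in this direction in 21.3% of all genes, and in either direction in 41.5%, so a difference in response between KO and HZ was common in these libraries. The stimulated KO libraries were also among those whose counts chose the pair, so these p-values are not independent of the choice. On log2(FPKM + 1), a scale that compresses low values, the difference of *Gpr65* was -0.26 and did not pass (adjusted p = 0.150 in limma).

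Per length, the 2 genes were close to each other in unstimulated KO, and *Gpr65* was the higher one in stimulated KO and HZ. The deposited FPKM values, reads divided by gene length and library total, gave back lengths of 2.147 kb for *Gpr65* and 7.267 kb for *Galc*, the same in every library with reads. In unstimulated KO the length-scaled level of *Gpr65* was 2.41 ± 0.0991 FPKM (SD, n = 2) and that of *Galc* 2.28 ± 0.0261 FPKM. In stimulated KO it was 4.64 ± 0.0552 FPKM for *Gpr65* and 2.20 ± 0.177 FPKM for *Galc*. FPKM of *Gpr65* per FPKM of *Galc* was thus 1.10 and 1.02 in the unstimulated and 1.98 and 2.26 in the stimulated KO libraries. In HZ this ratio was 0.232 and 0.846 without and 2.17 and 1.69 with stimulation, so in both genotypes the stimulated libraries did not overlap the unstimulated ones.

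**Figure D2:**
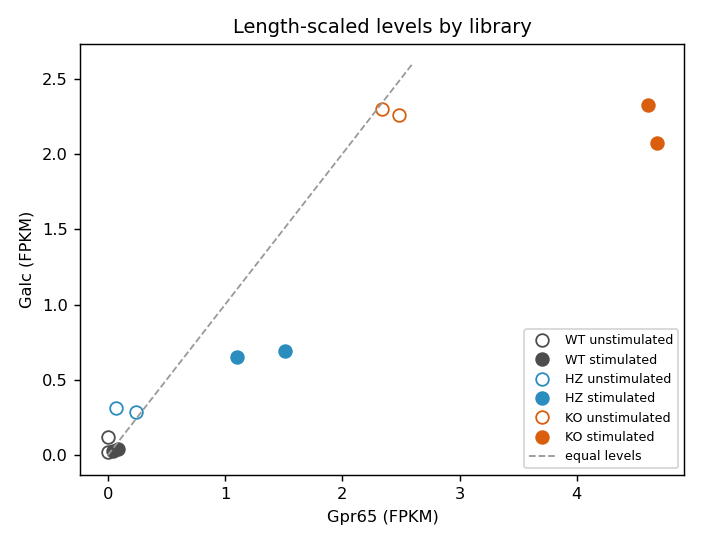
FPKM of *Gpr65* (horizontal axis) and of *Galc* (vertical axis), 1 point for each of the 12 libraries, open for unstimulated and filled for stimulated. The dashed line marks equal levels. Unstimulated KO libraries lie beside the line, near 2.41 FPKM *Gpr65* and 2.28 FPKM *Galc*, and stimulated KO libraries lie to its right at 4.64 FPKM *Gpr65* and 2.20 FPKM *Galc*.

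Other genes of the same stretch of chromosome 12 did not share the pattern of the pair. By the RefSeq order of genes, 13 other genes in the table start within 2 Mb, all on the side of *Gpr65*, and 11 of them had enough reads to be tested. On the side of *Galc* the next gene in the table lay farther away: it is *Flrt2*, which had at most 6 counts in any library and was not tested. The 5 nearest tested genes beyond *Gpr65* are *Spata7* and *Ttc8*, linked to photoreceptors and to the BBSome of cilia, *Ptpn21*, a tyrosine phosphatase, *Zc3h14*, a poly(A)-binding protein, and *Eml5*, of a family of microtubule-associated proteins. None of the 5 was called between genotypes in either state by edgeR, DESeq2 or limma, and 0 of the 5 reached an unadjusted p of 0.05 in edgeR. Their log2 differences lay between -0.43 (*Eml5*, stimulated KO against WT) and 0.79 (*Eml5*, unstimulated HZ against WT), and *Spata7*, the closest, was at -0.14 (SE 0.26) in unstimulated and 0.39 (SE 0.27) in stimulated KO against WT.

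Over the 11 tested neighbours, 1 was called in any of the 4 comparisons of KO or HZ with WT, against 14.2% of all genes. That gene, *Efcab11*, which encodes an EF-hand protein, was lower, opposite to the pair. It had 164 and 162 counts in unstimulated WT, 55 and 76 in unstimulated HZ and 80 and 55 in unstimulated KO, with no overlap of WT with the others. Its log2 difference was -1.37 (SE 0.27, adjusted p = 4.14e-05 in edgeR) in unstimulated KO and -1.30 (SE 0.27) in unstimulated HZ against WT. In stimulated KO against WT it was -1.02 (SE 0.30, adjusted p = 0.00454 in edgeR), a call lost without replicate 2 of stimulated WT or replicate 1 of stimulated KO. With stimulation, *Efcab11* was called higher in HZ (log2 response 1.04), and in KO or WT 0 of the 11 were called by edgeR, DESeq2 or limma, with 3 under an unadjusted p of 0.05 in edgeR. The median log2 difference of the neighbours was 0.04 in unstimulated and -0.04 in stimulated KO against WT, beside 0.02 in each over all genes.

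**Figure D3:**
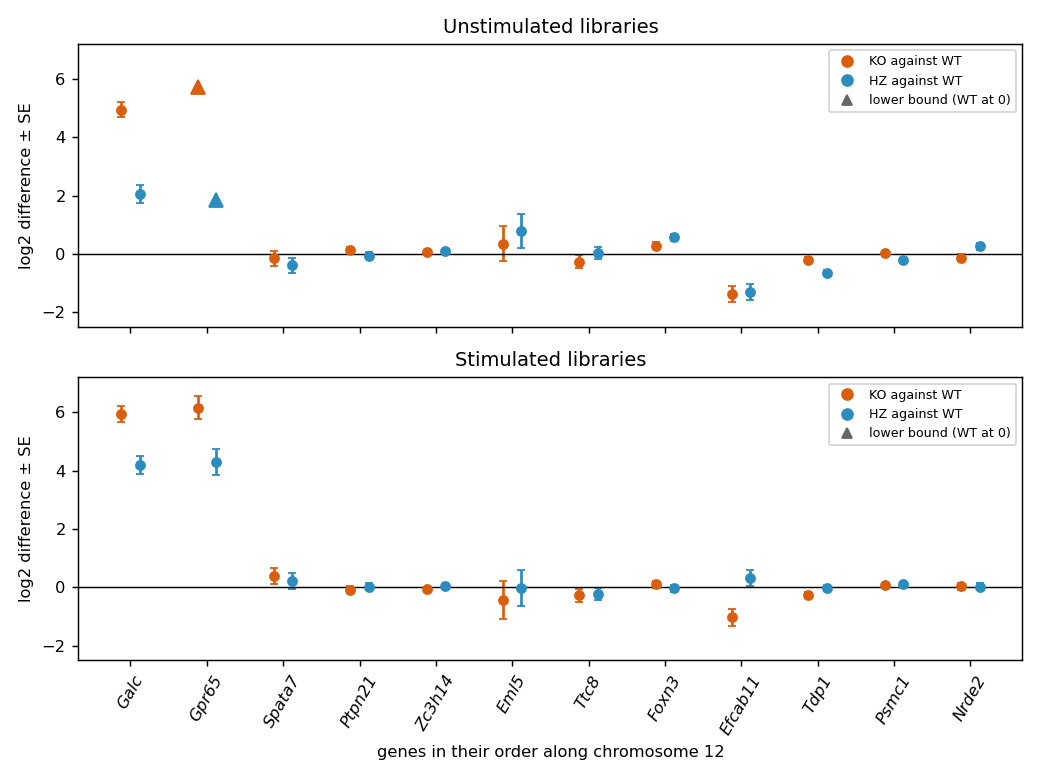
Log2 differences (vertical axis, ± SE of the edgeR fit) of *Galc*, *Gpr65* and tested neighbours in their order on chromosome 12, for KO (orange) and HZ (blue) against WT, in unstimulated (top) and stimulated (bottom) libraries. Triangles are lower bounds for *Gpr65*, whose unstimulated WT libraries are at 0. *Galc* and *Gpr65* stand above every neighbour drawn in each panel, where these reach at most 0.79 (*Eml5*, unstimulated HZ), and *Efcab11* is lowest at -1.37 in unstimulated KO.

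Among other receptors of the proton-sensing family, *Gpr132* also had more reads in KO. *Gpr132* encodes a relative of GPR65, and *Gpr4*, also in the table, was not tested. *Gpr132* had 6 and 10 counts in unstimulated WT, 35 and 50 in unstimulated HZ and 36 and 72 in unstimulated KO. Its log2 difference was 2.65 (SE 0.59, adjusted p = 0.000202 in edgeR) in unstimulated KO and 2.41 (SE 0.59, adjusted p = 0.000632 in edgeR) in unstimulated HZ against WT. In stimulated KO against WT it was 3.18 (SE 0.64, adjusted p = 6.03e-05 in edgeR), while in stimulated HZ the difference of 1.54 (SE 0.71, adjusted p = 0.0901 in edgeR) was not called. Its response to stimulation was called lower in HZ (log2 -1.34), unlike that of *Gpr65*. It is a low gene: no library had more than 72 counts of it.

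Downstream of Gs, 19 genes of cyclic AMP signalling were tested and 3 were called in any comparison of genotypes, near the 14.2% of all genes. *Pde8a*, a phosphodiesterase that degrades cyclic AMP, was lower in unstimulated KO (log2 difference -1.84, SE 0.15), unstimulated HZ (-1.36, SE 0.15) and stimulated KO (-1.48, SE 0.15). The adenylyl cyclase *Adcy6* was lower in unstimulated KO (-1.89, SE 0.25), with 161 and 178 counts for WT and 50 and 48 for KO. *Adcy9*, another adenylyl cyclase, was called higher in all 4 comparisons on at most 11 counts per library. The α subunit of Gs, *Gnas*, and the protein kinase A genes *Prkacb* and *Prkar1a*, which had the highest CPM of the list, were not called in any. With stimulation 3 of the 19 were called, beside 17.3% of all genes: *Crem*, a cyclic AMP-responsive transcription factor, rose in KO (log2 response 2.05), HZ (1.68) and WT (1.24), *Adcy4* rose in HZ and WT, and *Adcy6* fell in HZ by 1.19.

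Of the 12 other genes of lysosomal sphingolipid breakdown on the list, which were all tested, 1 was called in any comparison of genotypes, beside 14.2% of all genes. This was *Gm2a*, the GM2 ganglioside activator, and it was lower. It had 41435 and 43198 counts in unstimulated WT and 21774 and 21045 in unstimulated KO, and its log2 difference was -1.08 (SE 0.03, adjusted p = 2.30e-34 in edgeR). It was also lower in stimulated KO (-1.22, SE 0.03) and stimulated HZ (-1.06, SE 0.03). *Psap*, whose product yields the saposins that assist GALC, had a log2 difference of -0.02 (SE 0.03) in unstimulated and -0.09 (SE 0.03) in stimulated KO against WT. Median log2 differences of the list were 0.05 in unstimulated and -0.02 in stimulated KO against WT, beside 0.02 over all genes in each. In the responses to stimulation, where 17.3% of all genes were called in at least 1 genotype, 0 of the 12 were called by edgeR or DESeq2 and 1 by limma, although all 12 reached an unadjusted p of 0.05 in some genotype in edgeR. *Glb1*, the lysosomal β-galactosidase, had the lowest response of the list, -0.84 in HZ (SE 0.04), and *Gla*, the α-galactosidase, the highest, 0.61 in HZ (SE 0.06), both under the 2-fold threshold.

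In the synthesis of sphingolipids, 3 of 15 tested genes were called between genotypes, each in all 4 comparisons, beside 14.2% of all genes called in at least 1 of them. *St3gal5*, which makes the ganglioside GM3, was higher, with 60 and 78 counts in unstimulated WT, 346 and 307 in unstimulated HZ and 393 and 347 in unstimulated KO. Its log2 differences against WT were 2.32 (SE 0.18) in unstimulated KO, 2.25 (SE 0.18) in unstimulated HZ, 2.57 (SE 0.19) in stimulated KO and 1.83 (SE 0.19) in stimulated HZ. *B4galt6*, a lactosylceramide synthase, was lower: it had 59 to 97 counts in the WT libraries and 0 to 7 in every HZ and KO library. *Sgms2*, a sphingomyelin synthase, was lower by a log2 difference between -1.16 (unstimulated HZ) and -2.20 (stimulated KO). In the responses, 0 of the 15 were called by edgeR, DESeq2 or limma, beside 17.3% of all genes in edgeR, and 11 reached an unadjusted p of 0.05 in some genotype in edgeR. The median log2 difference of the list was 0.10 in unstimulated and 0.07 in stimulated KO against WT.

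Among 4 genes of sphingosine metabolism, 1 was called between genotypes and 1 in the responses, beside 14.2% and 17.3% of all genes. *Sgpp1*, a sphingosine-1-phosphate phosphatase, was called lower in unstimulated (log2 difference -1.17, SE 0.21) and stimulated KO (-1.74, SE 0.23). *Sphk1*, which phosphorylates sphingosine, rose with stimulation from 1 and 2 to 150 and 149 counts in KO. It went from 1 and 5 to 60 and 83 counts in HZ. In WT it went from 1 and 2 to 138 and 134 counts. Its log2 response was 6.88 in KO, 4.64 in HZ and 6.58 in WT, and its log2 difference between genotypes was not called in edgeR. In stimulated HZ against WT that difference was -0.98 (SE 0.32, adjusted p = 0.0125 in edgeR), just under the 2-fold threshold, and in DESeq2 it was -1.01 (adjusted p = 0.00811) and called.

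**Figure D4:**
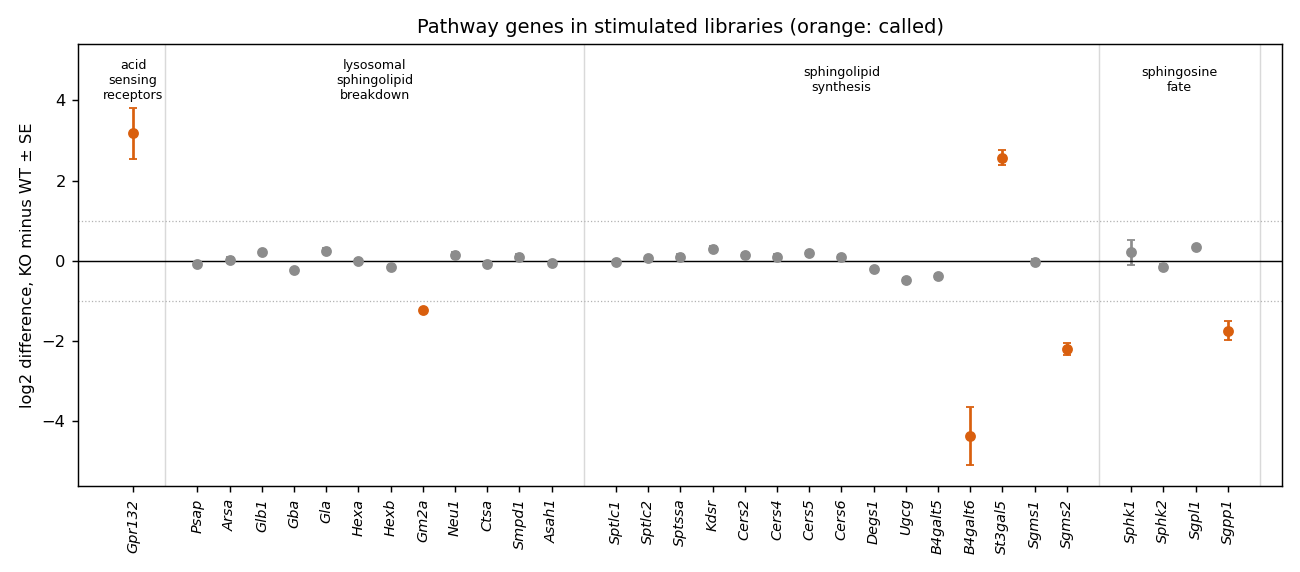
Log2 difference of stimulated KO against WT (vertical axis, ± SE of the edgeR fit) for tested genes of 4 lists without *Gpr65* and *Galc*. Orange points were called (adjusted p under 0.05 and at least 2-fold, dotted lines) and grey points were not. *Gpr132* (3.18) and *St3gal5* (2.57) lie above, *B4galt6* (-4.36), *Sgms2* (-2.20), *Sgpp1* (-1.74) and *Gm2a* (-1.22) below, and the others lie within the dotted lines.

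Markers of other cells were read beside these levels. Macrophage markers, of cells known to express both genes, summed to between 26.7 and 66.4 CPM. By group they were 41.8 to 45.5 CPM in unstimulated WT, 26.7 to 27.2 in unstimulated HZ and 46.0 to 48.2 in unstimulated KO. They were 56.7 to 58.1 CPM in stimulated WT, 64.0 to 65.9 in stimulated HZ and 59.3 to 66.4 in stimulated KO. The markers did not move together: in unstimulated HZ against WT, *Cd68* had a log2 difference of -0.93 (SE 0.07) and *Adgre1* of 0.72 (SE 0.20). Both were under the 2-fold threshold. *Cd68*, a lysosomal protein, made up most of this sum, while *C1qa* and *Mrc1* were at 0 in 11 of 12 libraries each and *Csf1r* reached at most 23 counts. Of the 9 markers, 4 were tested. *Csf1r*, the receptor for macrophage colony-stimulating factor, was called lower in stimulated HZ against WT, with 1 and 0 counts against 23 and 5, and had log2 differences of -3.59 in unstimulated and -2.11 in stimulated KO against WT, which were not called. *Cd14* was called higher in stimulated KO against WT (log2 difference 1.25, SE 0.35), which had 107 and 145 counts there and 48 and 63 in WT. The 3 basophil markers summed to between 465 and 674 CPM. Of these, the protease *Mcpt8* was called higher in stimulated HZ against WT (1.01, SE 0.16), was 0.95 (SE 0.16) in stimulated KO, under the 2-fold threshold, and had 151 to 195 counts in the WT libraries and 188 to 362 in HZ and KO. *Prss34* was called higher in unstimulated HZ against WT (1.53, SE 0.53) and was -0.72 (SE 0.59) in stimulated HZ, not called. *Cd200r3* was not called between genotypes. Against WT it was -0.36 (SE 0.03) in unstimulated KO and 0.17 (SE 0.03) in unstimulated HZ. After stimulation it was -0.03 (SE 0.03) in KO and -0.17 (SE 0.03) in HZ. Summed counts of the basophil markers were 13951 to 23404 per library, so *Mcpt8* made up little of the sum. Of the eosinophil markers, *Siglecf* was called lower in unstimulated KO (-2.92, SE 0.63), with 5 and 3 counts against 38 and 20 in WT, and was called higher with stimulation in KO (4.21, SE 0.58), HZ (1.49, SE 0.45) and WT (1.86, SE 0.42). Of the erythroid and megakaryocyte markers, which summed to between 1511 and 2422 CPM, 4 were tested and *Klf1* was the 1 called, lower in stimulated HZ against WT (-3.38, SE 1.25). In that comparison the SE was 0.02 for *Itga2b*, against 1.18 for *Hba-a1* and 0.97 for *Gp9*, so *Hba-a1* and *Gp9* were measured far less closely. The share of each marker in the sum is not given here. Whether such cells had a part in the levels of the pair was not tested. Among the mast cell markers, *Hdc*, the histamine-forming enzyme, was called lower in unstimulated KO (-2.89, SE 0.05), stimulated KO (-1.87, SE 0.04) and stimulated HZ (-1.35, SE 0.04) against WT, and the other 8 were not called between genotypes.

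The genes most like each member were found by Pearson's correlation of log2 CPM over the 12 libraries, over the 10440 tested genes whose counts averaged 50 or more. They are a description, since the libraries share 6 groups. Nearest to *Gpr65* were *S100a1* (0.983), *Ost4* (0.983), *Atp5e* (0.983), *Mgat1* (0.981) and *Atp5l* (0.977). These are a calcium-binding protein, a subunit of the oligosaccharyltransferase, 2 subunits of the ATP synthase and an N-glycan enzyme. All varied less than *Gpr65* in proportion to their level: *Ost4* went from 62.0 CPM in unstimulated WT to 81.6 CPM in stimulated KO. *Galc* stood at rank 84 of this order (0.929).

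Among the genes nearest to *Galc* were *Ckap4* (0.975), *Mrgprb1* (0.975), *Icam2* (0.971) and *Hmga1* (0.962), with *Gpr65* at rank 54. *Mrgprb1* encodes a receptor of the Mas-related family, whose members share sequence, so reads could be split between paralogs. It had 2.28 ± 0.0253 CPM (SD, n = 2) in unstimulated WT, 8.10 ± 0.644 CPM in unstimulated HZ and 36.6 ± 3.51 CPM in unstimulated KO. With stimulation it had 1.23 ± 0.0260 CPM in WT, 16.0 ± 1.11 CPM in HZ and 33.6 ± 0.0208 CPM in KO. As with *Galc*, the 3 genotypes did not overlap in either state. *Icam2*, an adhesion molecule, went from 9.98 ± 0.966 CPM in unstimulated WT to 39.3 ± 0.527 CPM in unstimulated KO.

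**Figure D5:**
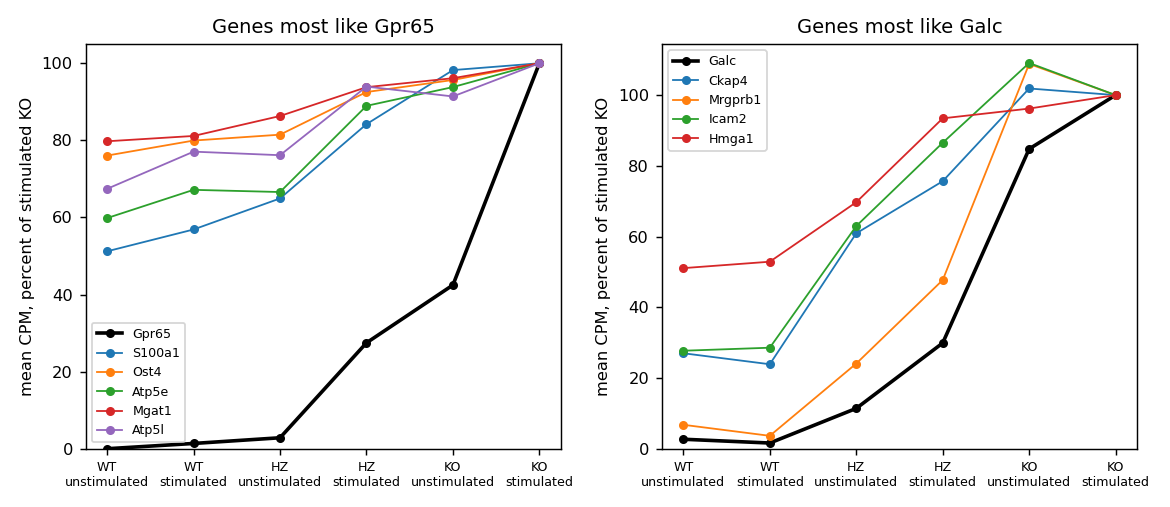
Mean CPM of each group as a percent of the gene's mean in stimulated KO (vertical axis) for *Gpr65* (left, black) and *Galc* (right, black) with genes whose log2 CPM correlated best with each over 12 libraries. The black lines start near 0 in WT, whereas *Ost4* and the others on the left start higher, and *Mrgprb1* on the right has the lowest WT levels of the genes drawn beside *Galc*, from 2.28 CPM in unstimulated WT to 33.6 CPM in stimulated KO.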

How the data were processed

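The authors deposited raw counts per gene and FPKM values of the same genes for 12 libraries; the deposited FPKM equal counts divided by gene length and library total. The submitters' notes name fastp, HISAT2, HTSeq and GRCm39, and versions and the strand setting of counting are not given in the sources used here. Counts were fitted in R 4.3.3 with edgeR 4.0.16 (filterByExpr, TMM, a mean for each of 6 groups, 6 residual degrees of freedom, prior count 0.125). Of 16234 genes, 12208 were tested, with two-sided p-values from its quasi-likelihood test, adjusted by Benjamini-Hochberg over all of them. A gene was called at an adjusted p under 0.05 and an at least 2-fold change, and an interaction at the adjusted p alone. Folds were ratios of TMM-scaled counts with 95% exact conditional intervals, which cover counting error only. Where a group was at 0, the fold was taken against a floor of 3 counts per library, with no allowance for counting error in the higher group. Depth was 29697958 to 35531667 counts, and the biological coefficient of variation was 4.01%. The fit was tested on simulated data.

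Alternatives were DESeq2 1.42.0, its size factors, no filter on low counts, a replicate block, a fit of the compared groups, no fold threshold, a prior count of 2, limma 3.58.1 (log2(FPKM + 1), genes averaging 0.5 FPKM or more), log2(FPKM + 0.1), and leaving out each library; library totals and FPKM without a filter were added after seeing the data. The members and gene lists were chosen with earlier results of these data known. Named genes are the members, *Elk4*, the 5 nearest tested neighbours on a side, list genes called or of highest CPM, markers and the 5 genes most alike. The genotype differences of the members were left untested. Gene order and promoters came from RefSeq GRCm38.p6, in which both members matched; 16115 symbols matched. Genes whose reads overlap another gene cannot be separated without strand. Some genes of the lists are not reported here.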

Additional observations from a re-analysis of the deposited data

Results flagged for a closer look

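Results are listed here because the response to stimulation differed between KO and HZ by a test of the difference itself. The stimulated KO libraries, whose high counts were among the values that chose the pair, enter this test, so its p-values are not independent of the choice. The log2 response of *Gpr65* was 1.23 in KO and 3.28 in HZ, a difference of -2.04 (SE 0.46, adjusted p = 0.000252 for the interaction in edgeR). Both stimulated libraries were higher than both unstimulated libraries in either genotype. Without replicate 2 of unstimulated HZ the difference was -3.15, and without replicate 1 it was -1.41, each still past the threshold. The log2 response of *Galc* was 0.24 in KO and 1.39 in HZ, a difference of -1.15 (SE 0.27, adjusted p = 0.000529 for the interaction in edgeR), between -1.24 and -1.07 when single libraries were left out. An interaction passed in 41.5% of all genes tested. With 2 libraries in a group, no library could be tested for standing apart.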

How the results depend on the processing

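The limits lie in low counts and in groups of 2. Low counts make the size of log2 differences depend on the pseudocount: WT libraries held at most 6 counts of *Gpr65* and 28 of *Galc*. On log2(FPKM + 1) in limma the response of *Gpr65* was 0.73 in KO, 0.99 in HZ and 0.089 in WT, its difference KO minus HZ was -0.26, and the response of *Galc* was 0.36 in HZ and, with its sign turned, -0.036 in KO; these values were the same with no filter. With library totals the response in KO was 0.95 for *Gpr65* and, with its sign turned, -0.051 for *Galc*; that scaling moved the median of all genes by -0.30 in KO, -0.24 in HZ and -0.32 in WT. DESeq2, its size factors and no filter on low counts changed no call of a member's response. Nor did a fit of the groups compared in KO and HZ; in WT it gave no value, because its filter dropped both genes. The genotype differences of the members kept their direction in every alternative, which for stimulated KO against WT was fixed by the choice of the pair.

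In unstimulated KO, unstimulated HZ, stimulated KO and stimulated HZ against WT, log2 differences of *Gpr65* were 1.77, 0.21, 2.41 and 1.11 on log2(FPKM + 1), 4.65, 1.28, 4.87 and 3.10 on log2(FPKM + 0.1), and 6.26, 2.59, 5.70 and 3.87 with a prior count of 2. That in unstimulated KO was 9.75 in DESeq2 and 10.38 with library totals. Those of *Galc* were 1.61, 0.28, 1.63 and 0.69 on log2(FPKM + 1), and on log2(FPKM + 0.1) they were 3.84 in unstimulated KO, 4.08 in stimulated KO and 2.51 in stimulated HZ. With a prior count of 2 they were 5.68 in stimulated KO and 3.95 in stimulated HZ. The ratio of *Gpr65* to *Galc* per length was 1.06 in unstimulated and 2.12 in stimulated KO. Scaling of libraries cannot change this ratio, because it cancels between 2 genes of the same library.

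Leaving out single libraries gave responses of *Gpr65* from 1.195 to 1.27 in KO, 2.64 to 4.37 in HZ and 4.77 to 5.74 in WT, and differences KO minus HZ from -3.15 to -1.41. Responses of *Galc* were 0.15 to 0.32 in KO, 1.34 to 1.45 in HZ and -1.47 to 0.92 in WT. In the order above, genotype differences of *Gpr65* were 10.18 to 10.27, 5.24 to 6.97, 5.75 to 6.72 and 3.89 to 4.87, and those of *Galc* 4.22 to 6.60, 1.33 to 3.71, 5.70 to 6.21 and 3.97 to 4.47. For *Elk4* in stimulated KO against WT they were -0.20 to 0.017, with the sign turned without replicate 1 of stimulated WT.

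Neighbours called in unstimulated KO, unstimulated HZ and stimulated KO were 0 in each in limma and 3, 6 and 3 with no fold threshold, which gave 2 in stimulated HZ; leaving out libraries gave 0 to 1 in stimulated KO. Among acid-sensing receptors, limma called 0 between genotypes and 0 in responses, a fit of the groups compared 1 and 1, and single libraries left out gave 1 to 2 in responses. Genes that the filter of a setting dropped count as not called in all these counts. For cyclic AMP genes, limma called 1 and 1, and no fold threshold 14 and 16. For lysosomal breakdown, no fold threshold gave 12 and 11, and limma and library totals each gave 1 in responses. For synthesis, no fold threshold gave 13 and 11. For sphingosine genes between genotypes, DESeq2, its size factors, the replicate block and a fit of the groups compared each called 2, limma 0 and no fold threshold 3; in responses limma called 0 and no fold threshold 4, and leaving out libraries gave 1 to 2 for either. The cause of these moves was not tested beyond what each setting itself does. Correlations of same-numbered deviations lay between -0.04 and 0.06 over 9858 genes. Noise of single libraries can hide a shared mouse or culture, so whether the replicate numbers pair the libraries stays unknown. With the replicate block the response of *Gpr65* in KO was 1.23, and no other call than the count of 2 above changed.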
